A study of Rattus norvegicus with 47 samples.

Results

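Kidneys of rats that carried depleted uranium (DU) pellets were set against kidneys of rats that carried cobalt (Co) pellets, over all genes of a bulk RNA sequencing count table. All libraries that the labels give as DU kidney (8) and as Co kidney (8) at 12 months after pellet implantation were taken, 16 of the 47 libraries in the series. The 8 kidneys of rats with tantalum (Ta), the metal that served the study as inert control, are given beside them where they place a difference. Depleted uranium is the dense, weakly radioactive metal left after enrichment, and both it and cobalt can enter the body from embedded fragments. Rats were assigned to a metal at random, each library carries its own animal number, and whether the kidney was sampled whole or in part is not given in the sources used here. The strain, sex, age, implantation site and number of pellets are likewise not given in the sources used here. The DU, Co and Ta kidneys each hold 1 unbroken run of animal numbers, and the order of handling and the metal cannot be told apart. Because 1 library, DU replicate 6, stood apart, counts of calls are also given for the other 7 DU kidneys where they changed, as are genes whose call or size changed without it.

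The proximal tubule reclaims most of what the glomerulus filters. Its apical brush border carries peptidases and transporters, and its last, straight stretch, the S3 segment, is the part of the rat nephron most sensitive to acute uranium poisoning. Cobalt is known for stabilising hypoxia inducible factors in place of low oxygen. Divalent metals such as zinc and cadmium induce metallothioneins, small cysteine-rich proteins that bind them.

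The 16 libraries held 22804509 to 32936105 counts in genes. Markers of the kidney were present in every library, for example uromodulin (Umod) at 484 to 5110 CPM (counts scaled to a library total of 1000000 with the TMM method) in DU and 2589 to 5676 CPM in Co. In a principal component analysis of the 16 libraries, the first component took 37.9% of the variance and the second 14%. DU replicate 6 lay at -114 on the second component, and Co replicates 5, 6 and 7 lay highest on the first, at 96 or above. DU replicate 5 was the DU library nearest to replicate 6 on the first component, at -82.5 against -96. After thinning each library to 22804509 counts, 17080 to 17860 genes had at least 1 count in DU kidneys, against 14538 to 16249 in Co and 14981 to 16573 in Ta kidneys. Each DU library therefore detected more genes than any Co or Ta library at equal depth, DU replicate 6 (17191) included. What this contributed to the differences between the metals was not tested.

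Of 15868 genes tested with edgeR's quasi-likelihood test and Benjamini-Hochberg adjustment, 1946 were higher in DU kidneys (12.3%) and 2047 were lower (12.9%) at an adjusted p under 0.05, 25.2% in all. Over all 16 libraries the higher genes moved further: their median log2 fold change was 0.93, against -0.47 for the lower ones. At least 2-fold differences were found in 896 of the higher but 301 of the lower genes. What DU replicate 6 contributed to these sizes was not tested. Without DU replicate 6, 1378 genes were higher (8.70%) and 1931 lower (12.2%) of 15833 tested, and 1266 of the higher and 1728 of the lower genes were called with and without it. The 8 DU values lay above all 8 Co values for 94 genes (0.592%) and below them for 150 (0.945%). With 7 DU kidneys these shares were 0.763% and 1.15%.

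The number of calls rested on which kidneys were compared. Replicates 5 to 8 of both metals alone gave 3162 higher and 2623 lower genes, and replicates 1 to 4 alone gave 0 higher and 1 lower, with 1530 genes at an unadjusted p under 0.05. The sign of the fold change in replicates 1 to 4 was the same as over all libraries for 96.2% of the called genes, which include those libraries. With Co replicates 5, 6 and 7 left out, a choice made after seeing the data, 166 genes were higher and 283 lower. With DU replicates 5 and 6 left out as well, 23 were higher and 64 lower. The single gene called in replicates 1 to 4 was Slc17a1.

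**Figure D1:**
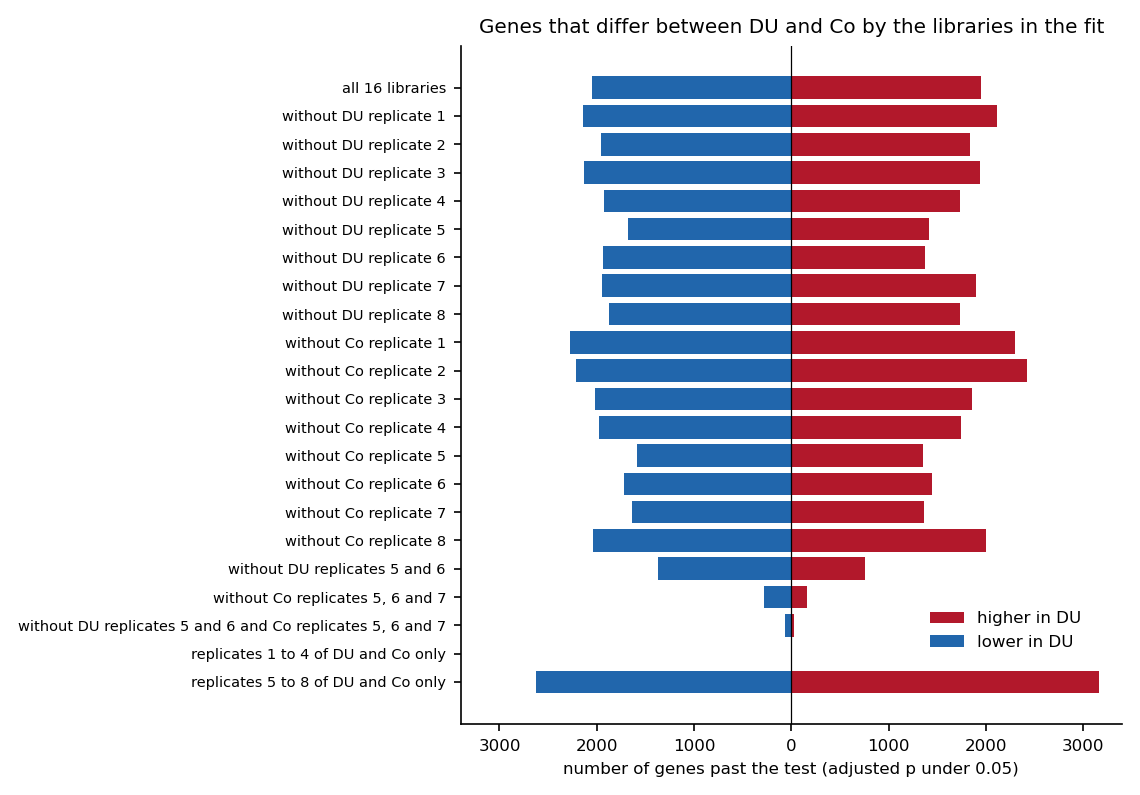
Genes past the test in DU against Co kidneys (horizontal axis, number of genes; bars to the right higher in DU, bars to the left lower in DU) for each set of libraries in the fit. The shortest bars with a single library left out, those without Co replicate 5, are at 1359 and 1587 genes. The bars shrink to 23 and 64 genes without DU replicates 5 and 6 and Co replicates 5, 6 and 7, and reach 3162 and 2623 genes with replicates 5 to 8 only.

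Of the 87 genes called with those 5 libraries left out, 79 were also called, in the same direction, over all 16, and most were lower in DU. Slc17a1, a phosphate and organic anion transporter of the proximal tubule brush border, ran from 60.7 through a median of 87.9 to 100.9 CPM in DU kidneys and from 108 through 148 to 224 CPM in Co kidneys. The groups did not overlap, and the log2 fold change was -0.90 ± 0.12 (SE; adjusted p = 8.74e-06). In replicates 1 to 4 it was -0.80 (adjusted p = 0.0297). Ta kidneys had 84.2 to 118 CPM (median 106), and 7 of 8 Co kidneys exceeded all of them. Thada, a gene first found at thyroid adenoma breakpoints, had 28.0 to 55.9 CPM (median 48.0) in DU and 79.3 to 127.4 CPM (median 105) in Co. All 8 DU kidneys were below every Co and every Ta kidney, the Ta values being 59.2 to 126.2 CPM. Its log2 fold change was -1.16 ± 0.13 (adjusted p = 5.34e-07), and it was -0.90 (adjusted p = 0.00246) without DU replicates 5 and 6 and Co replicates 5, 6 and 7. Eif5b, which joins the ribosomal subunits at the start of translation, had 78.1 to 117 CPM (median 101.2) in DU, 152 to 249.6 CPM (median 199) in Co and 149 to 221 CPM in Ta. All DU kidneys were again below all Co and Ta kidneys, with a log2 fold change of -1.03 ± 0.13 (adjusted p = 5.76e-06). Aoah, the hydrolase that removes fatty acyl chains from bacterial lipopolysaccharide, had 6.52 to 15.2 CPM in DU and 16.2 to 43.2 CPM in Co, again without overlap (log2 fold change -1.32 ± 0.17, adjusted p = 8.24e-06). Slc17a1, Thada, Eif5b and Aoah were chosen for description after their values were seen.

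Among genes with a settled symbol and at least 1 CPM on average, Cyp2c11 fell furthest in DU. It encodes a steroid-hydroxylating cytochrome P450 best known as the major male form of rat liver. The DU kidneys had 0.443 to 9.998 CPM (median 3.93) and the Co kidneys 21.0 to 97.1 CPM (median 42.3), with 6.74 to 100 CPM (median 24.2) in Ta kidneys. DU and Co did not overlap, and 7 of 8 DU kidneys were below every Ta kidney. The log2 fold change was -3.55 ± 0.62 (adjusted p = 0.000131), -3.38 without DU replicate 6 (adjusted p = 0.000309) and -3.13 in replicates 1 to 4, where it did not pass (adjusted p = 0.186). Near-identical members of the Cyp2c family share reads, so the split between them is uncertain. The other genes with the largest decrease had low levels: Defb42, a beta-defensin, Armh1, Eps8l3, Frmd1, Dydc2, the ephrin receptor Epha3, the aldehyde oxidase Aox4, the annexin Anxa13 and Nat8f2, with log2 fold changes of -2.70 to -2.38 and, Eps8l3, Epha3 and Anxa13 apart, a Co median under 3 CPM. All 9 passed without DU replicate 6 as well. Nat8f2 belongs to a family of near-identical copies and its count is uncertain.

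**Figure D2:**
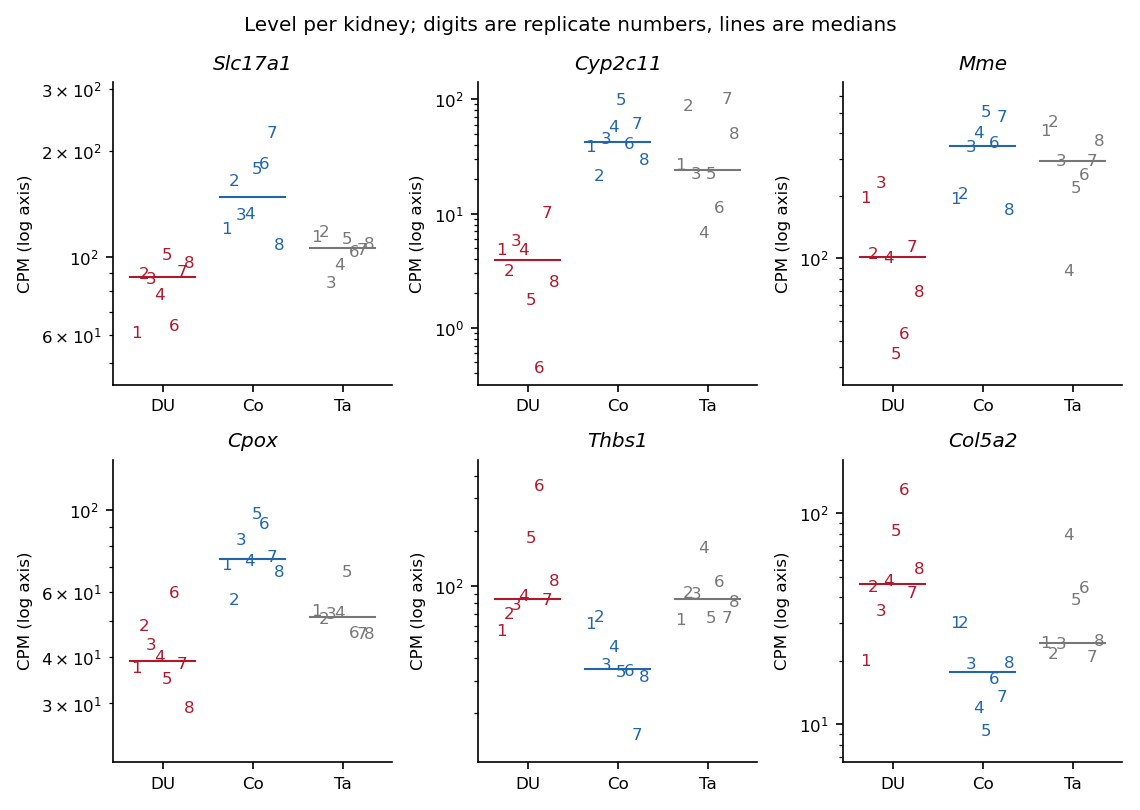
Level of 6 genes in each kidney (vertical axis, CPM on a log scale) for DU, Co and Ta; digits are replicate numbers and lines are group medians. Slc17a1 and Cyp2c11 show no overlap between DU and Co, Cpox overlaps through DU replicate 6 at 59.5 CPM and Co replicate 2 at 57.0 CPM, and Thbs1 and Col5a2 are spread most by DU replicates 5 and 6 and by the low Co kidneys.

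Peptidases of the brush border and the intrarenal renin-angiotensin system were lower in DU kidneys. Of 12 listed genes tested, 9 fell and 0 rose, with and without DU replicate 6, and the list's median log2 fold change was -1.0 (-0.87 without DU replicate 6), beside 0.05 over all genes tested. Mme, which encodes neprilysin, had 34.6 to 229.8 CPM (median 101.8) in DU, 169 to 498 CPM (median 347) in Co and 86.2 to 450.2 CPM (median 292) in Ta. In 6 of 8 DU kidneys Mme was below all Co kidneys, and the log2 fold change was -1.57 ± 0.29 (adjusted p = 0.000252). Anpep (aminopeptidase N) fell by 1.44, Mep1a and Mep1b (the meprin subunits) by 1.21 and 1.14, Dpp4 (dipeptidyl peptidase 4) by 1.03, Ggt1 (gamma-glutamyltransferase) by 0.97 and Enpep (aminopeptidase A) by 0.71 on the log2 scale. Agt, the precursor of angiotensin, averaged 84.2 CPM in DU and 163 CPM in Co, with a log2 fold change of -0.96 ± 0.23. Of the 3 that did not pass, Ace was at -0.49 (adjusted p = 0.113) and Agtr1a at 0.72 (adjusted p = 0.121). Mep1b was lost without Co replicate 5 (adjusted p = 0.0582) or 7 (adjusted p = 0.0536). In replicates 1 to 4 no member passed and the list's median was -0.40. The mean log2 CPM of the list ranged from 4.54 to 7.25 in DU, against 7.14 to 7.80 in Co and 6.46 to 7.61 in Ta, and DU replicates 6 (4.54) and 5 (5.60) were lowest.

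Transport genes of the S3 segment followed the same direction. Of 10 S3 markers, 6 fell and 1 rose (median log2 fold change -0.91), and without DU replicate 6, 7 fell and 1 rose. Slc7a13, an aspartate, glutamate and cystine transporter, had 13.0 to 2157 CPM (median 1040) in DU, 1697 to 5610 CPM (median 3482) in Co and 364 to 3088 CPM (median 2258) in Ta. The groups overlapped in DU replicates 1 and 3, and the log2 fold change was -1.74 ± 0.46 (adjusted p = 0.00567), a call lost when only the 16 DU and Co libraries were fitted (adjusted p = 0.0775). Slc3a1, the heavy chain of cystine transport, fell by 1.13 on the log2 scale, Slc22a7, an organic anion transporter, by 1.61, and Slco1a1 by 1.58. Acy3, which deacetylates mercapturates, had 106 to 841 CPM (median 617) in DU and 846 to 2108 CPM (median 1402) in Co, with no overlap (log2 fold change -1.39 ± 0.24, adjusted p = 0.000151). It was still lower at -0.74 (adjusted p = 0.0448) without DU replicates 5 and 6 and Co replicates 5, 6 and 7. The S3 member that rose, Cyp7b1, did so through DU replicate 6 at 48.2 CPM, since the other DU kidneys had at most 9.35 CPM, and it did not pass without that library (adjusted p = 0.317).

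Markers of the other segments were counted in the same way. Of 14 markers of the S1 and S2 segments, 1 fell and 1 rose: Slc22a12, the urate transporter, at -0.94, and Slc4a4, the basolateral sodium bicarbonate cotransporter, at 1.66. Without DU replicate 6, Slc4a4 did not pass (adjusted p = 0.0571) and the glucose transporter Slc5a2 rose in its place, at 1.33. Slc4a4 was also lost without DU replicate 5 or 7 or Co replicate 3, 4, 5, 6, 7 or 8 (adjusted p 0.0517 to 0.0806). Without Co replicate 2, 8 of the 14 rose. Among thick ascending limb (10), distal convoluted tubule (9) and collecting duct principal cell (10) markers, 0 passed in either direction, and of 10 intercalated cell markers 3 fell and 0 rose. All 3 intercalated calls, Atp6v0d2, Atp6v1c2 and Atp6v1b1, which encode subunits of the proton pump, were lost without Co replicate 6 (adjusted p 0.0501, 0.0730 and 0.0847), and the last 2 also without DU replicate 5 (adjusted p 0.0543 and 0.0871). In bulk tissue, fewer cells of a type and less RNA per cell cannot be told apart. Of 16 organic ion and drug transporters, 6 were lower and 2 higher (7 and 2 without DU replicate 6). Of all genes tested, 12.9% were lower and 12.3% higher, so the count of higher transporters was near that share. Abcg2, an efflux pump for urate and drugs, had 51.8 to 145 CPM (median 111) in DU and 141.1 to 292 CPM (median 208) in Co, with 7 of 8 DU kidneys below every Co kidney (log2 fold change -0.98 ± 0.17, adjusted p = 0.000147). Slc22a2, the organic cation transporter, fell by 1.25 and Abcb1a by 0.98, while the efflux pumps Abcc2 and Abcc4 rose, by log2 fold changes of 0.80 and 0.69. Slc22a6 and Slc22a8, the main basolateral organic anion transporters, had log2 fold changes of 0.06 and 0.64 and did not pass. The list's median over these 16 genes was -0.09.

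Abundant lower genes outside the lists included Slco1a6, an organic anion transporter, at 5.5 to 833 CPM (median 411) in DU and 827 to 2300 CPM (median 1638) in Co. A single DU kidney, replicate 3 at 833 CPM, overlapped the lowest Co kidney (log2 fold change -1.97 ± 0.42, adjusted p = 0.000849). Ppic (cyclophilin C), Etnppl (an ethanolamine phosphate lyase) and Gc (the vitamin D binding protein) had log2 fold changes of -1.98, -1.78 and -1.77. Members of other lists were lower as well. The brush border scaffold Slc9a3r1, known as NHERF1, had 331 to 675 CPM (median 504) in DU and 644 to 1161 CPM (median 802) in Co, with 7 of 8 DU kidneys below all Co kidneys (log2 fold change -0.76 ± 0.12, adjusted p = 5.96e-05). The proline transporter Slc6a20 fell by 1.09 and the sulfotransferase Sult1b1, without overlap, by 1.22 on the log2 scale. Of 16 genes of tubular injury and repair, 7 rose and 2 fell, and without DU replicate 6, 2 rose and 2 fell. Sox9, a transcription factor switched on in repairing tubule cells, was among the lower ones: 28.5 to 52.2 CPM (median 38.3) in DU and 50.2 to 101.6 CPM (median 64.9) in Co, at a log2 fold change of -0.92 ± 0.14 (adjusted p = 5.17e-05).

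Enzymes of heme synthesis and breakdown were lower in DU kidneys, 8 of 12 tested against 1 higher (median log2 fold change -0.33), and without DU replicate 6, 5 were lower and 0 higher (4 lower without Co replicate 5). Cpox, coproporphyrinogen oxidase, had 29.1 to 59.5 CPM (median 39.1) in DU, 57.0 to 97.5 CPM (median 73.7) in Co and 45.97 to 67.97 CPM (median 51.3) in Ta. DU was below all Co kidneys in 7 of 8 animals, and 6 of 8 Co kidneys were above all Ta kidneys while 6 of 8 DU kidneys were below them. The log2 fold change was -0.90 ± 0.14 (adjusted p = 5.17e-05), and -0.84 (adjusted p = 0.00859) without DU replicates 5 and 6 and Co replicates 5, 6 and 7. Blvra, biliverdin reductase A, averaged 94.3 ± 39.4 CPM in DU and 207 ± 71.3 CPM in Co (SD, n = 8 each; log2 fold change -1.13). Alas1, the rate-limiting enzyme of the pathway, fell by 0.42, and Alad, Urod, Fech and Hmox2 by 0.37 to 0.23 on the log2 scale. Alad, Urod and Fech did not pass without DU replicate 6 (adjusted p 0.0769, 0.0797 and 0.0769) or without Co replicate 5 (adjusted p 0.0829, 0.0977 and 0.0614). The member that rose, Hmox1, had 121.2 CPM in DU replicate 6 and 4.21 to 19.7 CPM in the other DU kidneys, against 1.77 to 13.2 CPM in Co, and did not pass without that library (adjusted p = 0.181).

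Transcripts of the mitochondrial genome fell as well, 9 of 13 (median log2 fold change -0.44), and 8 of 13 without DU replicate 6. ND6, the subunit of complex I encoded on the light strand, averaged 1183 CPM in DU and 2009 CPM in Co (log2 fold change -0.76 ± 0.17, adjusted p = 0.00125), ND4 fell by 0.62 and COX1, the catalytic subunit of cytochrome oxidase, by 0.44. The share of all counts in these 13 genes was 18.6% ± 3.87 in DU, 22.2% ± 2.40 in Co and 19.5% ± 2.52 in Ta (SD, n = 8 each). DU minus Co was -3.62 percentage points in a two-sided exact permutation test (p = 0.0387). Without DU replicate 6, which had the lowest share at 11.8%, the difference was -2.65 points (exact permutation p = 0.0743). Mitochondrial chaperones and proteases encoded in the nucleus fell in 6 of 10 cases and rose in 0 (4 and 0 without DU replicate 6), Hspd1 (the Hsp60 chaperonin) at -0.42 and Trap1 at -0.29. Of 24 nuclear genes of the respiratory chain, 2 were higher and 2 lower over all libraries, 5 and 0 without DU replicate 6 and 0 and 10 in replicates 5 to 8. None was called higher without DU replicate 8, and none lower without DU replicate 5 or Co replicate 5 or 7.

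Of 17 NRF2 targets and glutathione genes, 7 fell and 3 rose, and without DU replicate 6, 7 fell and 1 rose, where 12.9% of all genes tested were lower and 12.3% higher. Both subunits of the enzyme that limits glutathione synthesis fell: Gclc, the catalytic one, averaged 1757 CPM in DU and 5330 CPM in Co (log2 fold change -1.60 ± 0.35, adjusted p = 0.00119), and Gclm fell by 1.15. Nqo1, a widely used NRF2 target, had a log2 fold change of 0.17 and did not pass (adjusted p = 0.598). It was -0.22 without DU replicate 6. Srxn1, which reactivates peroxiredoxins, rose with and without that library (log2 fold changes 1.44 and 0.97). Among 15 peroxide and superoxide enzymes, 6 fell and 2 rose (5 and 2 without DU replicate 6, and 1 rose without any 1 of DU replicates 2, 4, 5 and 8 and Co replicates 3 to 7). Catalase (Cat) averaged 614 CPM in DU and 1349 CPM in Co (log2 fold change -1.13), and Prdx6 had 177 to 251 CPM (median 205) in DU and 235 to 401 CPM (median 314) in Co (log2 fold change -0.55 ± 0.09, adjusted p = 7.92e-05). The increase of Sod2, the mitochondrial superoxide dismutase, came from DU replicate 6 at 3599 CPM. The other DU kidneys reached at most 268 CPM and Sod2 did not pass without it (adjusted p = 0.0962). Of 15 genes of cytochrome P450 and conjugation enzymes, 6 fell and 1 rose. That was Cyp1b1, a target of the aryl hydrocarbon receptor, found at 0.0663 to 4.93 CPM in DU and 0 to 0.223 CPM in Co, where the level was at most a few counts.

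Genes of the extracellular matrix were higher in DU than in Co kidneys, 19 of 21 tested with 0 lower (median log2 fold change 1.59), and 18 of 21 without DU replicate 6 (median 1.44). Thbs1, thrombospondin 1, had 56.3 to 348 CPM (median 84.8) in DU, 15.1 to 66.8 CPM (median 35.2) in Co and 64.2 to 159.5 CPM (median 84.8) in Ta. In 7 of 8 DU kidneys it was above every Co kidney (log2 fold change 1.63 ± 0.28, adjusted p = 0.000112), and 7 of 8 Co kidneys were below every Ta kidney. Col5a2 was above every Co kidney in 7 of 8 DU kidneys too, and 6 of 8 Co kidneys were below every Ta kidney: 19.9 to 127.5 CPM (median 45.9) in DU, 9.22 to 30.1 CPM (median 17.7) in Co and 20.6 to 78.6 CPM (median 24.3) in Ta, at a log2 fold change of 1.59 ± 0.29 (adjusted p = 0.000219). Col4a2, of the basement membrane, rose by a log2 fold change of 1.47, and Col3a1, Col1a2 and Col1a1, of fibrillar collagen, by 2.53, 1.91 and 1.67. The gelatinase Mmp2 rose by 2.27 and Mgp, the inhibitor of calcification, by 2.81, with Mgp at 91.1 to 2561 CPM (median 220.2) in DU, 26.5 to 151 CPM (median 58.9) in Co and 86.1 to 361 CPM (median 154) in Ta. Without DU replicate 6, Mgp rose by 1.78 and Mmp2 by 1.6. Ccn2 and Postn did not pass (adjusted p 0.166 and 0.0537). The mean log2 CPM of the 21 genes was 4.85 to 6.96 in DU, 3.11 to 5.66 in Co and 5.02 to 6.77 in Ta. Co replicates 7, 5 and 6 were lowest at 3.11, 3.28 and 3.45, and Co replicates 1 and 2 at 5.57 and 5.66 lay within the DU range. In replicates 1 to 4 no matrix gene passed and the median was 0.49.

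Cell type markers moved with the matrix genes. Of 14 fibroblast and pericyte markers, 7 rose and 0 fell (6 and 0 without DU replicate 6), and of 12 endothelial markers, 6 rose and 0 fell (4 and 0, also without Co replicate 6 or 7, and 10 and 0 without Co replicate 2). The fibroblast and pericyte markers summed to 314 to 877 CPM in DU, 172 to 469.7 CPM in Co and 431 to 759 CPM in Ta. For endothelial markers the sums were 487 to 841 CPM in DU, 241 to 682 CPM in Co and 519 to 683 CPM in Ta. None of these markers was at 0 in all 16 libraries. Tagln, a protein of contractile cells, had 49.3 to 155 CPM (median 91.4) in DU and 12.2 to 55.2 CPM (median 27.1) in Co (log2 fold change 1.55 ± 0.30, adjusted p = 0.000308). Pdgfrb, the pericyte receptor, rose by 1.77 and Cdh5, endothelial cadherin, by 1.20. Kdr, the main endothelial receptor for VEGF, had 20.6 to 52.1 CPM in DU, 3.07 to 51.2 CPM in Co and 35.5 to 47.1 CPM in Ta. It was under 12 CPM in Co replicates 4 to 8 and did not pass (log2 fold change 1.05, adjusted p = 0.135). Low Kdr was not limited to Co. It was 1.67 to 5.26 CPM in the 7 kidneys with lead (Pb) and 1.44 to 5.97 CPM in replicates 5 to 8 with aluminium (Al). With tungsten (W) it was 4.63 to 7.45 CPM in replicates 5 to 8. Replicates 1 to 4 were higher, at 39.5 to 56.3 CPM with W and at least 7.61 CPM with Al. Among Co kidneys, the phosphate transporter Slc34a3 was lowest in replicates 5, 6 and 7 as well, at 4.17, 3.80 and 8.09 CPM, against 56.1 to 187 CPM in Co replicates 1 to 3. Slc34a3 was also low with other metals, at 5.65 to 19.1 CPM in Al replicates 5 to 8 and a median of 12.6 CPM in Pb. In W it was 3.34 to 33.2 CPM in replicates 5 to 8, against 121.3 to 134.2 CPM in replicates 1 to 4. Kdr and Slc34a3 were chosen after their values were seen. What the cells or the piece of tissue in the low Co kidneys contributed to the matrix result was not tested.

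Macrophage and dendritic cell markers rose in 13 of 15 cases and fell in 0, but without DU replicate 6 in 7 of 15. C1qc, a chain of complement C1q made by tissue macrophages, had 26.1 to 221 CPM in DU, with at most 91.5 CPM outside replicate 6, and 6.11 to 43.1 CPM in Co (log2 fold change 1.94 ± 0.41, adjusted p = 0.000875, and 1.43, adjusted p = 0.00641, without replicate 6). Itgam, Cd163, Cd68, Lyz2, Fcer1g and Aif1 did not pass without that library, and Cd68, Lyz2 and Aif1 did not pass without DU replicate 5 either (adjusted p 0.0542, 0.0665 and 0.0535), nor without Co replicate 5 or 7 (adjusted p 0.0509 to 0.0671). Antigen presentation genes kept their count, 8 of 15 higher and 0 lower with and without it. Cd74, the invariant chain of class II molecules, averaged 688 CPM in DU and 423 CPM in Co (log2 fold change 0.70), and the immunoproteasome subunit Psmb9 rose by 1.18. The RT1 genes RT1-DMa, RT1-Db1, RT1-Da, RT1-A2 and RT1-Bb, of class I and II, rose by 0.68 to 0.94, with the caution that near-identical RT1 copies share reads. RT1-Bb was lost without DU replicate 5 (adjusted p = 0.0960) or Co replicate 5 (adjusted p = 0.0531). Without Co replicate 8, 13 of the 15 antigen presentation genes were higher. Of 13 T and NK cell markers 3 rose (7 without Co replicate 2), and of 10 B and plasma cell markers 0 passed, where 12.3% of all genes tested were higher.

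Some genes of the medulla were among the higher ones. Of 10 genes of osmolyte and urea transport, 5 rose and 0 fell (6 and 0 without DU replicate 6, 3 and 0 without Co replicate 5 or 7), and of 10 markers of the thin limb and inner medulla, which share members with that list, 5 rose and 0 fell. The osmolyte and urea transport genes summed to 372 to 602 CPM in DU and 213 to 528 CPM in Co. The thin limb and inner medulla markers did not sum higher in DU, at 509 to 1305 CPM, against 778 to 1525 CPM in Co. Collecting duct principal cell markers had a median log2 fold change of -0.14. Akr1b1, aldose reductase, which makes sorbitol, averaged 67.4 CPM in DU and 26.7 CPM in Co (log2 fold change 1.33 ± 0.31, adjusted p = 0.00223), the urea transporter Slc14a2 rose by 1.55, the myo-inositol transporter Slc5a3 by 0.96 and the osmotic regulator Nfat5 by 0.62. Without Co replicate 5 the calls of Slc5a3 (adjusted p = 0.0577) and Nfat5 (adjusted p = 0.0556) were lost, and that of Nfat5 also without Co replicate 7 or DU replicate 5 (adjusted p 0.0631 and 0.0655). Slc5a3 ran from 5.51 to 12.4 CPM in DU and from 0.441 to 6.91 CPM in Co. Whether the share of medulla in each sample differed was not tested.

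**Figure D3:**
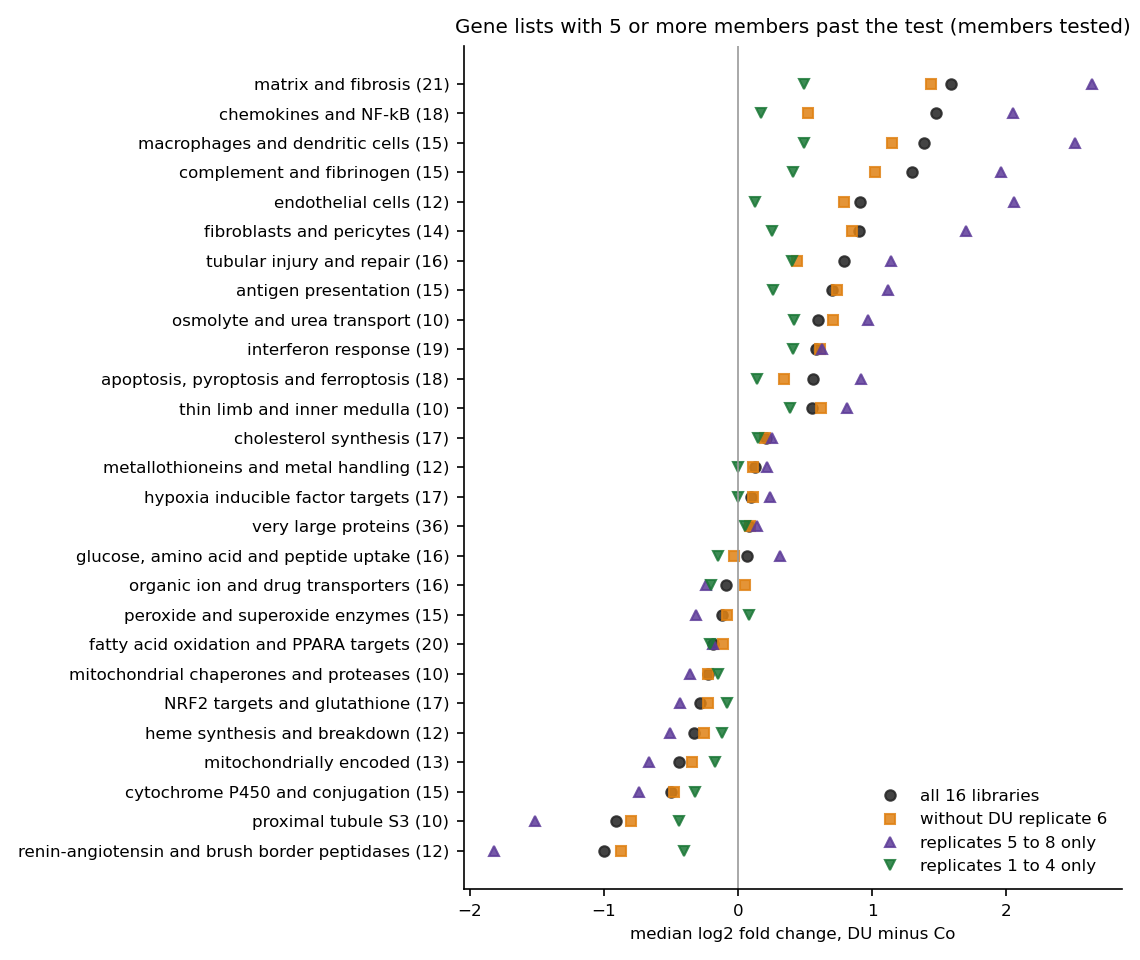
Median log2 fold change, DU minus Co (horizontal axis), of each gene list with at least 5 members past the test over all 16 libraries, with the number of members tested in brackets. Circles are all libraries, squares are without DU replicate 6, and triangles are replicates 5 to 8 (up) or 1 to 4 (down) alone: matrix genes run from 0.49 in replicates 1 to 4 to 2.64 in replicates 5 to 8, and brush border peptidases from -0.40 to -1.82.

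Among genes with a settled symbol and at least 1 CPM on average, the 10 largest increases included the acute-phase and injury genes Lcn2, Fgb, C3 and S100a8, which were far higher in DU replicate 6 than in the other DU kidneys. Lcn2, the secreted injury marker NGAL, had 8234 CPM in that kidney and 10.9 to 155 CPM in the other DU kidneys, against 8.998 to 72.8 CPM in Co and 5.10 to 124.8 CPM in Ta. Its log2 fold change of 5.59 ± 1.13 (adjusted p = 0.000586) became 1.38 (adjusted p = 0.151) without DU replicate 6. Havcr1, the proximal tubule injury marker KIM-1, had 1179 CPM in DU replicate 6, 193 CPM in DU replicate 5 and 12.0 to 49.2 CPM in the other DU kidneys, against 7.23 to 65.1 CPM in Co. The call for Havcr1 at 2.79 (adjusted p = 0.00739) was lost without DU replicate 6, at 0.88 (adjusted p = 0.322). In the same kidney Slc34a1, the main phosphate transporter of the proximal tubule, stood at 24.8 CPM, against 1864 to 3267 CPM in the other DU and 2098 to 4117 CPM in the Co kidneys. Slc34a1 was chosen after its values were seen and did not pass (log2 fold change -0.34, adjusted p = 0.449). S100a8, S100a9, C4bpa, Serpina3n, Cxcl1, Timp1 and Clu lost their call without DU replicate 6, with adjusted p of 0.0661 to 0.428. Of 18 chemokine and NF-kB genes, 12 were higher over all libraries and 2 without it. C9, the pore-forming complement protein, had 0 counts in all Co libraries and 690 counts in DU, 96 of them outside replicate 6. Against a floor of 3 counts over the Co group, C9 was at least 212-fold higher in DU, or at least 33.1-fold without DU replicate 6, counting error only. DU replicate 5 gave most of the rest: without both, 32 counts in 6 DU kidneys were left and C9 was at least 12.6-fold higher, and DU replicates 1 and 3 had 0 counts.

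Fibrinogen and complement genes kept part of the increase. Fgb, the fibrinogen beta chain, had 3888 CPM in DU replicate 6, 56.0 and 57.6 CPM in DU replicates 5 and 7 and 3.08 to 13.1 CPM in the other 5, against 3.34 to 15.7 CPM in Co. The log2 fold change was 6.39 ± 1.11 (adjusted p = 0.000135), and 1.88 (adjusted p = 0.0272) without DU replicate 6. Complement C3 had 8636 CPM in that kidney and 17.7 to 217 CPM in the others, against 11.7 to 57.8 CPM in Co, at 5.39 and, without it, 1.53 (adjusted p = 0.0411). The other chains, chosen after their values were seen, were also highest in DU replicate 6, at 4331 CPM for Fga and 549 CPM for Fgg, and neither passed without it (adjusted p 0.533 and 0.111). Of 15 complement and fibrinogen genes, 9 rose and 1 fell, and without DU replicate 6, 6 rose and 2 fell. C1s, C1r and Cfb rose in both, by 1.09 to 1.58 without that library. The promoters of Fgb and Fgg are shown because these chains are known to be induced together by interleukin 6 through STAT3 in liver. The 250 bases upstream of the start, from RefSeq on GRCr8, are printed 5′ to 3′, with matches to CTGGGAA, the core of the type II interleukin 6 response element, or its reverse complement in capitals. The coordinates are chr2:170700876-170701125 (minus strand) for Fgb and chr2:170652833-170653082 (plus strand) for Fgg.
Fgb: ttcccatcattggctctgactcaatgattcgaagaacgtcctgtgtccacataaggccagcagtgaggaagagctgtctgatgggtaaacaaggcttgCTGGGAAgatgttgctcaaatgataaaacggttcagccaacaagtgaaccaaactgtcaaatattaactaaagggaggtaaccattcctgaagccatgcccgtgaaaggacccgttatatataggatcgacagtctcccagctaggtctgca
Fgg: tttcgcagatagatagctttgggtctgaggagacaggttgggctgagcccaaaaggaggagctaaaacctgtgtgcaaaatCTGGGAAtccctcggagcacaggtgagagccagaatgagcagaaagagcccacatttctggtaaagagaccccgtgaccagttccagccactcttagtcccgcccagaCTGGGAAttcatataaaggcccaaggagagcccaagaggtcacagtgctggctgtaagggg
The Fgb window held 1 match and the Fgg window 2. Of 33360 promoter windows of that length, 9.57% held at least 1 match and 0.495% at least 2, and 0 of the 2 Fga windows held one. A match is a description of the letters and not evidence of binding.

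**Figure D4:**
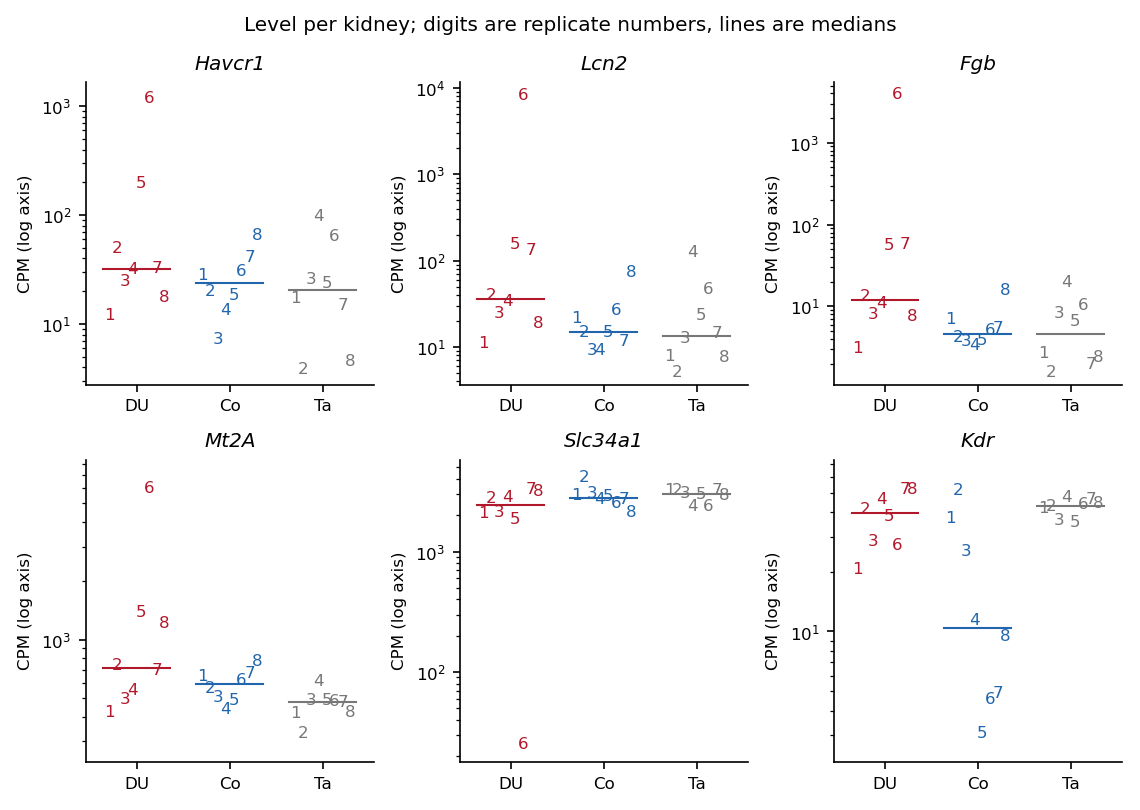
Level of 6 genes in each kidney (vertical axis, CPM on a log scale) for DU, Co and Ta; digits are replicate numbers and lines are group medians. DU replicate 6 is highest for Havcr1 (1179 CPM), Lcn2 (8234 CPM), Fgb (3888 CPM) and Mt2A (5960 CPM) and lowest for Slc34a1 (24.8 CPM), and Co replicates 4 to 8 are lowest for Kdr.

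Metallothioneins differed mainly in 3 DU kidneys. Mt1 had 1971, 951 and 986 CPM in DU replicates 6, 5 and 8 and 235 to 449 CPM in the other 5, against 199 to 483 CPM in Co and 274 to 486 CPM in Ta. Mt2A had 5960, 1383 and 1210 CPM in the same DU kidneys and 425 to 739 CPM in the other 5, against 436 to 774 CPM in Co and 328 to 609 CPM in Ta. For both genes these 3 DU kidneys were above every Co and Ta kidney and the other 5 lay within or near the Co range. The log2 fold changes were 1.06 ± 0.33 for Mt1 (adjusted p = 0.0150) and 1.29 ± 0.33 for Mt2A (adjusted p = 0.00473). Neither passed without DU replicate 6 (0.64, adjusted p = 0.116, and 0.41, adjusted p = 0.175) or when only the DU and Co libraries were fitted (adjusted p 0.0643 and 0.0727). Their promoters are shown because metallothioneins are the classical metal-induced genes. The windows are again the 250 bases upstream of the start from RefSeq on GRCr8, at chr19:10832976-10833225 for Mt1 and chr19:10838709-10838958 for Mt2A, both on the minus strand. Capitals mark TGCGCNC or TGCACNC, the core of the metal response element, on either strand.
Mt1: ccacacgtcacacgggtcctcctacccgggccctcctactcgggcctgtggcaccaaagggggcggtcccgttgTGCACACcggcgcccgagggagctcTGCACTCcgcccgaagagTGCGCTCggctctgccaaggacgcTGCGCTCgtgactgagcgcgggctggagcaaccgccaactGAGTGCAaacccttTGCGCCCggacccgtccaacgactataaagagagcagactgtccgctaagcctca
Mt2A: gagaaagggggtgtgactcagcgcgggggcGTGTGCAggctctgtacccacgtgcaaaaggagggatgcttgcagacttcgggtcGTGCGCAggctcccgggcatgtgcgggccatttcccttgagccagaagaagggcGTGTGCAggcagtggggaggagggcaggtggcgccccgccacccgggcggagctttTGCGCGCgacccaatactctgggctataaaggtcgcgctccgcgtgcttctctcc
The Mt1 window held 6 matches and the Mt2A window 4, and 20.6% of the 33360 windows held at least 1 and 1.17% at least 3. Among 12 tested genes of metal handling, 4 rose and 2 fell, and without DU replicate 6, 1 rose and 2 fell. Of all genes tested, 12.3% were higher and 12.9% lower, and 8.70% and 12.2% without that library. The list's counts without DU replicate 6 were near those shares. The member that rose with and without that library was Slc39a14, a zinc, iron and manganese importer, with log2 fold changes of 2.19 and 0.99. Slc39a8, the related importer, fell to 16.8 CPM on average in DU, against 32.4 CPM in Co (log2 fold change -0.95 ± 0.22, adjusted p = 0.00176).

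Of 17 targets of hypoxia inducible factors, 5 were higher in DU than in Co and 0 lower, with a median log2 fold change of 0.10, and 3 were higher without DU replicate 6, Co replicate 3 or Co replicate 7. Pfkfb3, a regulator of glycolysis, rose by 1.18 and Higd1a by 0.47. Angptl4, which is also a PPAR target, rose by 2.98, and by 1.34 without DU replicate 6 (adjusted p = 0.0231). Of 20 genes of fatty acid oxidation and PPARA targets, Angptl4 was the 1 that rose and 6 fell, among them Acadl and Acadm, dehydrogenases of the first step of beta oxidation, at -0.48 and -0.61. Cdkn1a, the p53 target p21, had 13.2 to 29.9 CPM in DU and 5.69 to 18.3 CPM in Co (log2 fold change 0.78, adjusted p = 0.0143), and 3 of 16 p53 targets rose, a share near the 12.3% of all genes tested. Spp1 (osteopontin), Umod and Cyp24a1, the vitamin D 24-hydroxylase, had log2 fold changes of 1.25, -0.44 and -0.13 and did not pass (adjusted p 0.117, 0.239 and 0.755). Ahnak, a very large scaffold protein, was higher in DU, at 203 to 318 CPM (median 246) in DU and 91.6 to 211 CPM (median 158) in Co (log2 fold change 0.75 ± 0.14, adjusted p = 0.000212), with 7 of 8 DU kidneys above every Co kidney. Its log2 fold change was 0.44 in replicates 1 to 4 (adjusted p = 0.346) and 1.14 in replicates 5 to 8 (adjusted p = 1.96e-05).

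Some genes were called without DU replicate 6 but not over all libraries. Serpinb1a, an inhibitor of neutrophil proteases, had 32.7 to 44.5 CPM in 7 DU kidneys and 47.9 to 106 CPM in Co, without overlap, and 199.9 CPM in DU replicate 6. It was called lower without that library (log2 fold change -0.99 ± 0.14, adjusted p = 1.27e-05) and not with it (-0.37, adjusted p = 0.253). Asgr1, a subunit of the asialoglycoprotein receptor, had 9.38 to 12.5 CPM in 7 DU kidneys and 16.9 to 25.4 CPM in Co, with 88.7 CPM in DU replicate 6 (-0.86, adjusted p = 0.00130, without it, and 0.06 with it). Clmp, Tmc5 and Depdc1b were lower at -1.10, -1.09 and -0.93 without it. Higher genes of this kind were Tex33, Itih4, Ccdc3, Fam180a and Lamc3, with log2 fold changes of 1.54 to 2.89 and adjusted p of 0.0338 to 0.0499 without it. They had missed the threshold over all libraries at adjusted p of 0.0502 to 0.0799, and Ccdc3, Fam180a and Lamc3 also passed in replicates 5 to 8. Itih4 had 11.4 CPM in DU replicate 5 and at most 1.58 CPM in the other DU kidneys, against 0 to 1.36 CPM in Co, and its adjusted p was 0.593 without DU replicate 5. Tex33 had 12.9 CPM in DU replicate 1 and at most 3.61 CPM in the others, against 0 to 1.75 CPM in Co, and its adjusted p was 0.242 without DU replicate 1.

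The Ta median lay between the DU and Co medians for 1253 of the 1946 genes higher in DU and for 1390 of the 2047 lower genes. The Ta median was at or beyond the DU median for 450 of the higher and 411 of the lower genes, and at or beyond the Co median for 243 and 246. These are counts of medians with no test, since the genes were chosen by DU and Co.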

How the data were processed

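Bulk kidney RNA was sequenced from 8 DU, 8 Co and 8 Ta rats and 23 rats with other metals. The authors deposited raw counts per gene for each library; STAR 2.7.2a, featureCounts from Subread 1.6.4 and the build mRatBN7.2 are named, per the submitters' processing notes. The gene annotation, strand setting and treatment of reads with several matches are not given in the sources used here, so overlapping and antisense genes cannot be told apart. Of the table, 22525 genes were used and 29 lines that name no gene were left out, which hold coordinate text of 5 very long genes. Depth was 21604755 to 35775818 counts, and counting error limits genes of a few counts.

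Counts were fitted with edgeR 4.0.16 (R 4.3.3; filterByExpr, TMM, quasi-likelihood F test, two-sided, Benjamini-Hochberg adjustment over all genes tested, threshold 0.05) over all 47 libraries with metal as the factor. The contrast was DU minus Co, and it was repeated without DU replicate 6. Standard errors were the log2 fold change divided by the root of F. CPM used TMM-scaled library sizes, and mean log2 CPM a prior count of 2. Single values were compared by exact permutation over 12870 arrangements. The procedure was run on simulated counts with known changes. These held no kidney set apart as DU replicate 6 was, so they do not bear on calls that rest on it. P-values measure the spread between these animals.

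Named genes were, among those past the threshold with at least 1 CPM on average, a symbol that is not provisional and 6 of 8 DU libraries on the side of the fold change, the 10 furthest higher and lower, the 5 furthest each way with at least 50 CPM, the 10 list members with the smallest p each way, 5 each way called only without DU replicate 6, and a panel of 12 genes. The members, the 54 lists and the markers were chosen with earlier results of these data known. Other genes are named as members of lists or as chosen after their values were seen. Alternatives were RLE size factors, other filters, DESeq2 1.42.0, limma 3.58.1 with voom, only the 16 libraries, a replicate block, a covariate, other thresholds, each library left out and replicates 1 to 4 or 5 to 8. Leaving out DU replicates 5 and 6, Co replicates 5, 6 and 7, or all 5, was added after seeing the data. No 2 libraries of a group were copies: the smallest chi-square per degree of freedom among 56 pairs was 16.1. Promoters came from RefSeq (GRCr8) by symbol, and 90.0% of the table's symbols were found in its gene table. A few genes that these rules or lists name are not reported here.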

Additional observations from a re-analysis of the deposited data

Results flagged for a closer look

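In each group of 8, a kidney was marked when its distance to the nearest other value, on the log2 CPM scale, took up more of the group's range than Dixon's 95% critical value. Of 148 groups looked at for 72 named genes and both summary values, 15 were marked, 13 of them for DU replicate 6; chance alone marks about 1 group in 20. Many of these genes were named because DU replicate 6 was far from the rest in them, so the count cannot be read against that rate. DU replicate 6 was far above the other DU kidneys for Lcn2 (8234 CPM), C3 (8636 CPM), Fgb (3888 CPM), Fga (4331 CPM), Cxcl1 (247 CPM), Mt2A (5960 CPM), Hmox1 (121.2 CPM), Serpinb1a (199.9 CPM), Asgr1 (88.7 CPM) and Clmp (25.7 CPM). The same kidney was far below the others for Slc34a1 (24.8 CPM), Abcg2 (51.8 CPM) and Lamc3 (2.95 CPM). DU replicate 5 stood above the other DU kidneys for Itih4 (11.4 CPM), and Co replicate 8 above the other Co kidneys for Fgb (15.7 CPM).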

How the results depend on the processing

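Over all libraries, 3993 genes were past the test. Counts moved by more than 1.5 times under these settings: 1894 genes when only the DU and Co libraries were fitted, 1 gene (0 higher, 1 lower) in replicates 1 to 4, 223 genes against a fold of at least 1.5, 2130 genes without DU replicates 5 and 6, 449 without Co replicates 5, 6 and 7, and 87 without all 5. The single gene of replicates 1 to 4 stands beside 1530 at an unadjusted p under 0.05. Leaving out each library in turn gave 2946 to 4636 genes. Without DU replicate 6 the count of 3309 became 1858 when only the DU and Co libraries were fitted. RLE size factors, other filters, DESeq2, voom, the balance covariate and an adjusted p under 0.1 kept both counts within 1.5 times. The share of higher genes over all libraries was 48.7%, and 52.2% with RLE, 54.0% with DESeq2, 35.5% without DU replicates 5 and 6, 37.0% without Co replicates 5, 6 and 7 and 26.4% without all 5. Replicate numbers did not pair the kidneys (correlation of same-numbered deviations -0.293 to 0.0304, and 0 DU kidneys matched best with their own number). The replicate block gave 4212 genes and turned the mitochondrial share's p to 0.0703 at -3.62 points. Leaving out each library gave that share a difference of -4.40 to -2.65 points, with exact permutation p of 0.00715 to 0.0834. The balance of small ribosomal (28 genes) over very large (36 genes) proteins, in mean log2 CPM, was 2.56 ± 0.321 in DU and 2.56 ± 0.400 in Co (SD, n = 8 each; difference 0.00165, exact permutation p = 0.993), and -0.0917 to 0.0665 with each library left out.

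Single genes changed sign as follows, in log2 units. Without DU replicates 5 and 6, Spp1 was -0.06, Clu -0.05, Fga -0.10, Nqo1 -0.10, Tmc5 -1.11 and Asgr1 -0.83. Without all 5 libraries, Spp1 was -0.02, Clu -0.03, Nqo1 -0.15, Tmc5 -0.65, Asgr1 -0.69 and Cyp24a1 0.04, which was 0.07 without Co replicates 5, 6 and 7. In replicates 1 to 4, Mt1 was -0.17, Nqo1 -0.06, Tmc5 -0.43, Asgr1 -0.65, Slc34a3 -0.03 and Fgg -0.01, and in replicates 5 to 8 Cyp24a1 was 0.05. With voom, Nqo1 was -0.22, Cyp24a1 0.01, Tmc5 -0.76 and Asgr1 -0.75. With the replicate block Tmc5 was -0.23 and Asgr1 -0.21, and with the balance covariate -0.15 and -0.14. With each library left out, Nqo1 ran from -0.22 to 0.29, Cyp24a1 from -0.32 to 0.01, Tmc5 from -1.09 to 0.66 and Asgr1 from -0.86 to 0.16. The cause was not tested. The deposited counts limit what can be said of genes with a few counts or none in a group, such as Cyp1b1 and C9 in Co.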

Other observations

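The 87 genes called without DU replicates 5 and 6 and Co replicates 5, 6 and 7 held further genes, named after their values were seen. Among the 64 lower in DU were Slc5a10, a sodium-coupled mannose and fructose transporter, at a log2 fold change of -0.80, Slc52a3, a riboflavin transporter, at -1.0, Tmigd1, an adhesion protein of the brush border, at -1.04, and Myo7b, its myosin, at -0.40. Also lower were Agxt2, which clears asymmetric dimethylarginine, at -0.56 and Dmgdh, dimethylglycine dehydrogenase, at -0.77. Msra, which repairs oxidised methionine, was at -0.66. Each of these was also called over all 16 libraries, with log2 fold changes of -1.23, -1.51, -1.73, -0.52, -0.95, -1.17 and -1.09.

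The 23 higher genes included genes for subunits of the respiratory chain, the ATP synthase and the ribosome, again picked after their values were seen. Among them were Cox5b at 0.54 (adjusted p = 0.00649), Uqcrb at 0.63, Atp5me at 0.76, Ndufa1 at 0.52 and Rpl38 at 0.95. Over all 16 libraries their log2 fold changes were 0.32, 0.28, 0.37, 0.34 and 0.66, and Uqcrb (adjusted p = 0.119) and Atp5me (adjusted p = 0.103) did not pass. Of the listed genes, 4 of 24 of the nuclear respiratory chain and 1 of 28 cytosolic ribosomal proteins were higher without those 5 libraries. Of all 16067 genes tested in that fit, 23 were higher. Rps28 (0.91) and Chchd2 (1.30) have near-identical copies and are uncertain. The balance of small over very large proteins moves with genes of this kind in these libraries. Without those 5 libraries, the balance was 2.31 to 2.84 in DU and 2.11 to 3.02 in Co. Co replicates 2, 3 and 4 were below every DU kidney, at 2.15, 2.14 and 2.11. The part of the balance in these calls was not tested. Cyp26a1, which degrades retinoic acid, was higher at 1.82 (0.96 over all libraries). Of 14 genes of retinoid handling, 4 rose and 0 fell over all libraries, with and without DU replicate 6, among them Aldh1a2 and Aldh1a3, which make retinoic acid, at 1.21 and 1.5. Of all genes tested, 12.3% were higher, and 8.70% without DU replicate 6. Without DU replicate 4, 5 or 8 or Co replicate 3, 4, 5 or 6, 2 of the 14 rose.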
